A study of Mus musculus with 4 samples.

Results

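Pulmonary surfactant is the lipid and protein film that keeps alveoli open, and 10 genes for its proteins and for the lamellar bodies that store it were followed here across every cell class of dissociated mouse lung tumors. The 10 genes were taken by symbol from the 31055 features of the deposited matrix, and each matched 1 feature. They were Sftpa1, Sftpb, Sftpc and Sftpd (the surfactant proteins), Abca3, Lamp3, Napsa, Slc34a2, Lpcat1 and Sfta2. Single-cell RNA-seq had been performed on total viable cells, sorted on DAPI alone, from tumors of 4 female mice, with droplet chemistry that counts unique molecular identifiers (UMIs) at the 3′ ends of transcripts. All mice carried KrasLSL-G12D, which Cre turns on, 2 copies of Lkb1XTR, in which Cre flips a gene trap into the first intron of Lkb1, and a Cre-dependent tdTomato reporter at Rosa26. Tumors were initiated by Lenti-Cre given into the trachea, so recombination followed infection rather than a cell type promoter, and grew for 16 weeks. All mice received 4 mg doses of tamoxifen for 2 weeks before harvest. The 2 Restored mice (KrasLSL-G12D and Lkb1XTR/XTR with Rosa26LSL-tdTomato/FLPo-ERT2) carried the tamoxifen-dependent recombinase that removes the trap, and the 2 Non-Restored mice (KrasLSL-G12D and Lkb1XTR/XTR with Rosa26LSL-tdTomato) lacked it. Per the study's methods, mice with autochthonous tumors were between 6 and 12 weeks old when tumors were initiated.

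The deposited matrix pooled the 4 mice in 20351 cells and 58624795 UMIs, and the files analysed here do not tie a cell to a mouse. The matrix therefore counts as 1 sample, Restored and Non-Restored cells could not be compared, and no p-value is given. Cell barcodes shared between libraries could not be counted for the same reason. Each value below carries an exact 95% interval for counting error only, and unequal shares of the 4 mice in a cell class cannot be told apart from a difference between classes. The filters kept 19488 cells, whose median depth was 1949.5 UMIs. Cells were placed in 14 classes by counting markers from fixed lists, none of which held any of the 10 genes. The epithelial gate held 854 cells, or 4.38% of those kept, with a median of 3894.5 UMIs. A UMI of Krt18 was found in 82.7% of them and of Cldn18 in 90.3%, against 0.311% and 0.304% of the 15439 cells of the 12 classes outside the epithelium and airway, called the other classes below. The gate read these markers, so they describe it and are no result. TdTomato was detected in 98.4% of epithelial cells and in 30.0% of the cells of the other classes.

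As background, alveolar type II (ATII) cells make surfactant, pack it into lamellar bodies, lysosome-related organelles built of stacked lipid, and release it by exocytosis, while flat alveolar type I (ATI) cells carry gas exchange. ATII cells can give rise to ATI cells and are a cell of origin of lung adenocarcinoma. Sftpb and Sftpc encode small hydrophobic proteins that spread the lipid film, and Sftpa1 and Sftpd encode collectins, secreted lectins that bind microbes. Abca3 pumps phospholipid into the lamellar body, Lamp3 is a membrane glycoprotein of that organelle, and Napsa encodes an aspartic protease that helps process the Sftpb precursor. Slc34a2 takes up phosphate, and Lpcat1 makes the disaturated phosphatidylcholine of surfactant. Sfta2 encodes a small secreted protein of the distal lung. NKX2-1, FOXA and C/EBP factors are known regulators of this program. Alveolar macrophages clear used surfactant.

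RefSeq promoter windows (GRCm38.p6) were matched for 7 of the 10 genes, and those of Sftpc, Sftpd and Napsa were not used here. The 250 bases before each start were searched on both strands for the NKX2-1 core TCAAG, the FOXA motif TGTTTAC and the C/EBP motif TTGCNNAA, and no matches of different motifs overlapped. TCAAG was found in 3 of the 7 windows (Sftpa1, Sftpb and Sfta2) and in 35.9% of 32851 promoter windows of that length. TGTTTAC was found in 1 (Lamp3), against 3.17% of all windows, and TTGCNNAA in 1 (Slc34a2), against 9.56%. The windows of Abca3 and Lpcat1 held none of the 3 motifs. A match is a description of letters and not a bound site. The 4 sequences shown are from 4 of the 5 genes with a match, with the matches in capitals, and together they hold all 3 motifs. That of Sfta2 is not printed. Sftpa1 (chr14:41131538-41131787, plus strand), Sftpb (chr6:72304360-72304609, plus strand) and Lamp3 (chr16:19706366-19706615, minus strand) are given as 250 bases, and Slc34a2 (chr5:53049253-53049352, plus strand) as the last 100 bases before its RefSeq start.
Sftpa1: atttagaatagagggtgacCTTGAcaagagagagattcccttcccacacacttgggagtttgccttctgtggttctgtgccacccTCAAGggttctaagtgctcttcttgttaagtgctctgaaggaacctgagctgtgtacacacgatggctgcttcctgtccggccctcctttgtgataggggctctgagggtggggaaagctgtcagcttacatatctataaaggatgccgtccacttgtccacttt
Sftpb: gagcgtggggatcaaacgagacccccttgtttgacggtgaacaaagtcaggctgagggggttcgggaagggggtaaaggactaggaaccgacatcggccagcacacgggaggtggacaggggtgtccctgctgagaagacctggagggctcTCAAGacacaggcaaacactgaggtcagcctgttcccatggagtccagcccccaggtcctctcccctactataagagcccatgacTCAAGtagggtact
Lamp3: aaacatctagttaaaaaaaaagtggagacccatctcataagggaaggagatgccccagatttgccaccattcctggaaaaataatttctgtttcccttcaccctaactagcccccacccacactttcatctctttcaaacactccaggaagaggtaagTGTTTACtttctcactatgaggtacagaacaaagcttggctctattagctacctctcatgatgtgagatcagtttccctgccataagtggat
Slc34a2: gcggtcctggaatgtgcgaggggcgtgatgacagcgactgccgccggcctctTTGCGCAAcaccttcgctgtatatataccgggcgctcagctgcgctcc

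Sftpa1 (ENSMUSG00000021789) and Sftpd (ENSMUSG00000021795) are neighbors on chromosome 14, with 35.8 kb between their annotated ends (GENCODE vM21, mm10). Sftpa1 spans 41131782 to 41136452 on the plus strand and Sftpd 41172214 to 41185149 on the minus strand. Sftpc lies elsewhere on chromosome 14, at 70520949 to 70524081 on the minus strand. None of the 10 genes shares exon sequence with another gene on its own strand. Abca3 overlaps exons of D330041H03Rik, and Napsa those of Gm15396, on the opposite strand only.

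In the epithelial cells the 10 genes together took 12.7% of all UMIs, 126641 CPM (UMIs of a gene scaled to 1 common total of UMIs; 95% interval 126272 to 127010). CPM here compares numbers of 3′ ends between genes, so no division by transcript length was needed. Sftpc alone made up 74.9% of the UMIs of the 10 genes, at 94812 CPM (94493 to 95131). Sftpc is the usual marker of ATII cells in the healthy lung. Sftpa1 followed at 12448 CPM (12333 to 12564) and Sftpb at 7957 CPM (7865 to 8050).

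The remaining genes formed a lower tier whose neighbors were separated by non-overlapping intervals in all but 1 step. Sftpd stood at 3220 CPM (3161 to 3279) and the phosphate transporter Slc34a2 at 3110 CPM (3053 to 3169), and these intervals overlapped. Sfta2 was at 1793 CPM (1749 to 1837) and Napsa at 1648 CPM (1606 to 1690). The acyltransferase Lpcat1 was at 704 CPM (677 to 732), Lamp3 at 562 CPM (538 to 587) and the lipid pump Abca3 at 387 CPM (367 to 408). Cells differed widely among themselves. The quartiles of Sftpc per epithelial cell were 36805 and 131871 CPM around a median of 98276 CPM, those of Sftpa1 were 730 and 17043 CPM around 8504 CPM, and those of Slc34a2 were 0 and 4376 CPM around 2408 CPM. Sftpb had the tighter quartiles of 3562 and 10230 CPM around 7406 CPM.

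**Figure D1:**
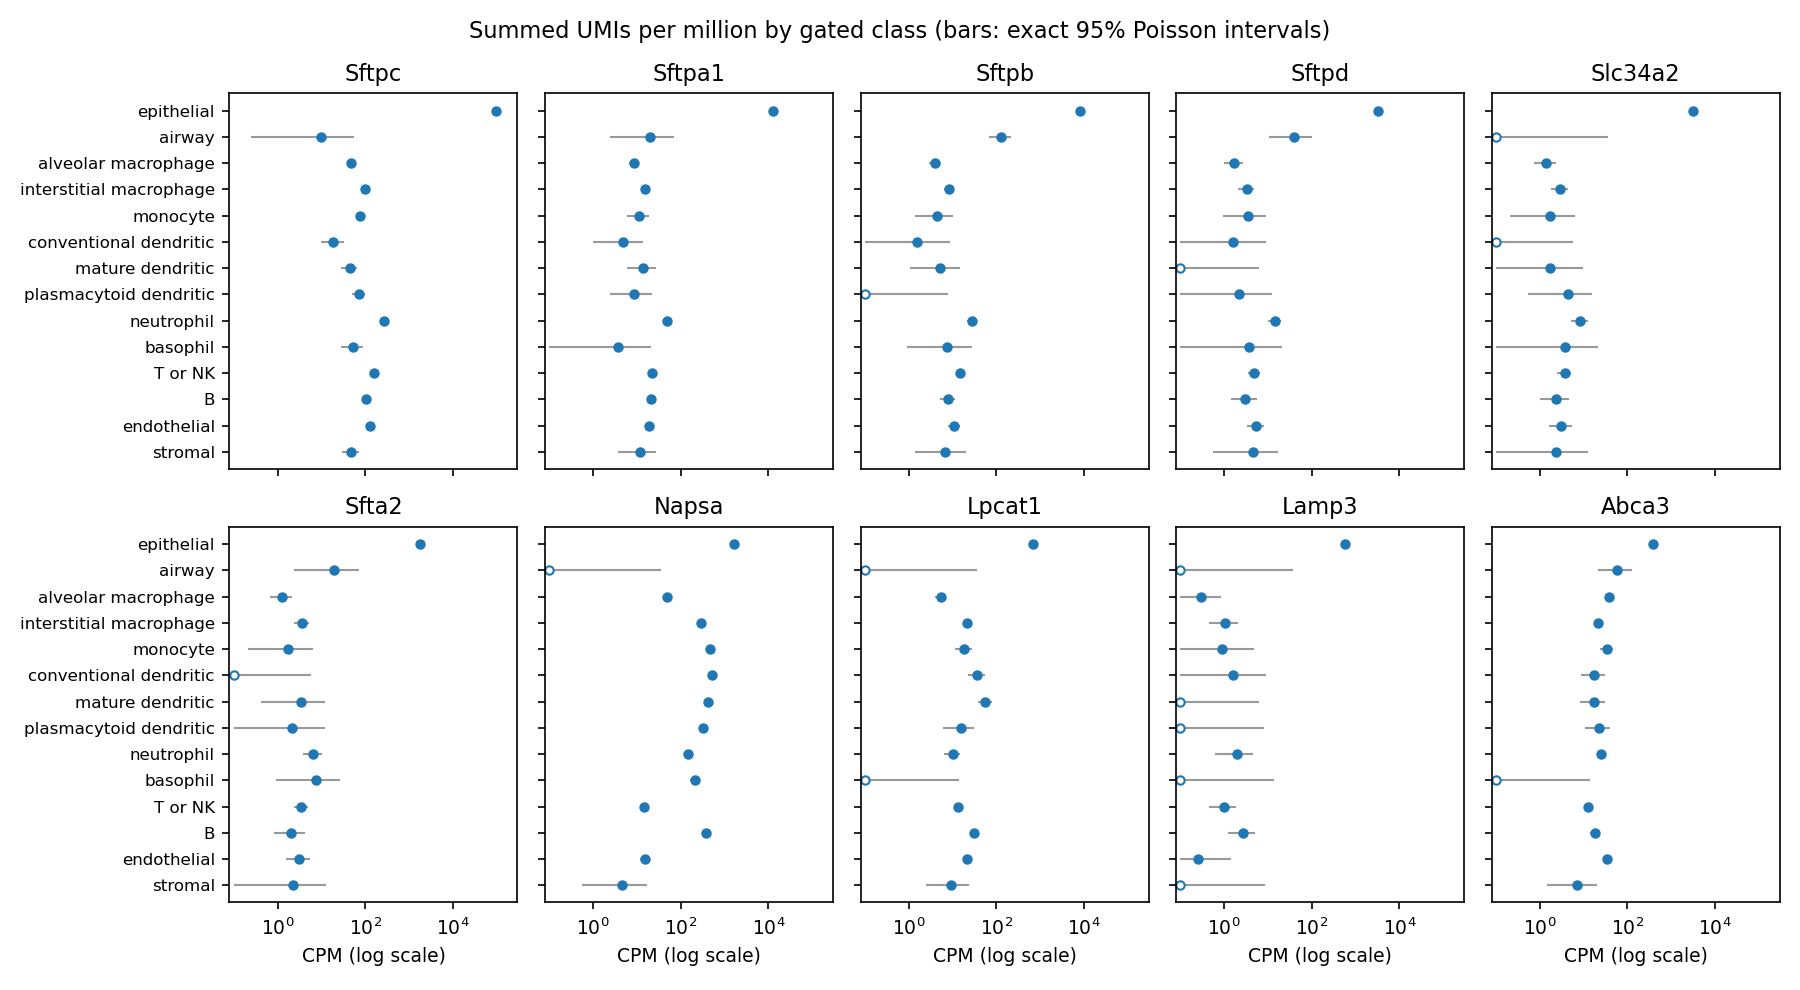
Level of each of the 10 genes (CPM, log axis) in 14 gated cell classes, with exact 95% Poisson intervals; open points mark 0 UMIs and bars are clipped at the left edge of the axis. Sftpc stood at 94812 CPM in epithelial cells and under 300 CPM in every other class, while Napsa reached 505 CPM in conventional dendritic cells.

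Outside the epithelium the same genes were low but seldom absent. Summed over the 12 other classes, the 10 genes stood at 336 CPM (331 to 342), 377-fold below the epithelial level (370 to 383). All 10 were at least 2-fold higher in epithelial cells with an interval of the log2 ratio off 0, as were 15.6% of the 3389 genes compared. The fold was 862 for Sftpc, 1066 for Slc34a2, 808 for Sftpb, 797 for Sftpd, 698 for Sftpa1, 620 for Sfta2 and 610 for Lamp3. It was 44.1 for Lpcat1, 15.6 for Abca3 and 11.2 for Napsa. Between 92.3% and 96.3% of all UMIs of the first 7 genes in kept cells lay in the epithelial gate, against 73.5% for Lpcat1, 52.3% for Abca3 and 38.3% for Napsa.

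RNA released from broken cells gives every droplet some UMIs of abundant genes, so the level of Sftpc in cells that do not make it was taken as a measure of this background. Sftpc ranged from 18.9 CPM in conventional dendritic cells to 275 CPM in neutrophils. Per cell, and without the 23 cells that held 10 or more Sftpc UMIs, it ranged from 0.0915 UMIs in basophils to 0.312 in interstitial macrophages. Alveolar macrophages, at a median of 5457 UMIs, held 0.247 Sftpc UMIs per cell (0.225 to 0.271), and T or NK cells, at a median of 1582 UMIs, held 0.138 (0.128 to 0.149). When each class was divided at its median depth, the intervals of the shallower and deeper cells overlapped in 12 of 12 classes, which does not show equal levels. In alveolar macrophages the shallower cells (median 4598 UMIs) held 0.247 and the deeper cells (median 6434 UMIs) 0.247, and in B cells the values were 0.125 (0.104 to 0.149) and 0.105 (0.0864 to 0.127). They were 0.127 (0.113 to 0.142) and 0.150 (0.135 to 0.166) in T or NK cells, and 0.0806 (0.0262 to 0.188) and 0.258 (0.148 to 0.419) in stromal cells. Over the 12 classes pooled, which mixes classes of unlike depth, they were 0.133 (0.125 to 0.142) and 0.220 (0.209 to 0.230), without overlap. The 23 cells left out held 38.3% of the Sftpc UMIs of the other classes, and 1 T or NK cell alone held 659. Without them the summed level fell to 279 CPM (274 to 284). Without the cells that Scrublet called as doublets it was 325 CPM (320 to 331).

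The 10 genes were then set against Sftpc in each of the 12 classes. A single source of RNA keeps its genes in 1 ratio everywhere, so each gene's UMIs were divided by those expected from the Sftpc UMIs of the class and the epithelial ratio of that gene to Sftpc. The interval of this quotient covers counting error in the gene's own UMIs only. The Sftpc UMIs were taken as fixed, although conventional dendritic cells had only 12, so the intervals are too narrow. The numbers of classes given here and below rest on these intervals. Sftpb and Slc34a2 held the epithelial ratio in 12 of 12 classes, in that the interval of the quotient included 1. Sftpd, Sfta2 and Lamp3 held it in 11 of 12 and Sftpa1 in 8 of 12, where the other 4 classes were above. In T or NK cells, the class with the most cells, Sftpa1 was at 1.10 times (0.954 to 1.26) the level expected, and without the 23 cells above it at 1.23 times (1.01 to 1.48). Pooled over the 12 classes, Sftpa1 was at 1.23 times (1.15 to 1.33), Sfta2 at 1.39 times (1.15 to 1.67) and Slc34a2 at 0.809 times (0.669 to 0.969), off 1 in all 3. Without the 23 cells Slc34a2 was at 0.975 times (0.781 to 1.20), and the pooled intervals of Sftpb and Sftpd also included 1. Sftpa1 was then at 1.28 times (1.17 to 1.41), Sfta2 at 1.61 times (1.29 to 2.00) and Lamp3 at 1.74 times (1.15 to 2.51), off 1 in each. Many of these intervals were wide, and a quotient that includes 1 does not show that no transcript was made. Without the 23 cells, Sfta2 held the ratio in 10 classes, Sftpd in 12 and the other 4 genes in the same numbers as before, though for Sftpa1 T or NK cells took the place of neutrophils among the classes above.

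Napsa, Abca3 and Lpcat1 departed from that ratio, each lying above it in 11 of 12 classes. Napsa, the aspartic protease, stood at 505 CPM (451 to 563) in conventional dendritic cells, 458 CPM in monocytes, 425 CPM in mature dendritic cells and 384 CPM (364 to 406) in B cells. It was lower in plasmacytoid dendritic cells (327 CPM), interstitial macrophages (291 CPM), basophils (211 CPM) and neutrophils (149 CPM). Alveolar macrophages held 48.9 CPM, endothelial cells 15.2 CPM, T or NK cells 14.7 CPM and stromal cells 4.61 CPM. In T or NK and endothelial cells it stood 5.40-fold (4.52 to 6.41) and 6.67-fold (5.08 to 8.60) above the Sftpc-scaled level. In B cells it was 209-fold above (197 to 220). Without the 23 cells the values were 9.60-fold in T or NK cells (7.92 to 11.5) and 316-fold in B cells (299 to 334), and Seurat clusters in place of gates gave 20.2-fold in T or NK cells (18.2 to 22.4). After thinning every cell to 1000 UMIs, a Napsa UMI was found in 29.3% of B cells (27.1 to 31.5), whose median depth was 1366 UMIs, and in 0.876% of T or NK cells (0.624 to 1.20). Without thinning, the shares were 40.8% and 1.52%.

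Abca3, the lipid pump, stood at 38.4 CPM (34.7 to 42.4) in alveolar macrophages, 34.0 CPM (24.2 to 46.5) in monocytes and 33.8 CPM (28.3 to 40.1) in endothelial cells, with overlapping intervals. These were 201-fold (181 to 222), 107-fold (76.4 to 147) and 63.1-fold (52.7 to 74.8) above the Sftpc-scaled levels. Without upper cut-offs on genes and mitochondrial share the endothelial value was 24.3-fold (20.8 to 28.4). T or NK cells held 12.7 CPM (10.5 to 15.3), below alveolar macrophages by more than their intervals. No Abca3 UMI was found in 153 basophils, whose upper limit of 13.9 CPM lay above the T or NK value. Lpcat1, the acyltransferase, stood at 56.1 CPM (38.6 to 78.7) in mature dendritic cells, with conventional dendritic cells at 36.2 CPM (22.9 to 54.3) and B cells at 31.6 CPM (25.8 to 38.2). It was at 5.41 CPM (4.08 to 7.05) in alveolar macrophages. This interval overlapped those of stromal cells (2.51 to 23.6), neutrophils (6.57 to 14.7) and plasmacytoid dendritic cells (6.18 to 31.7). Basophils had no Lpcat1 UMI, with an upper limit of 13.9 CPM.

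**Figure D2:**
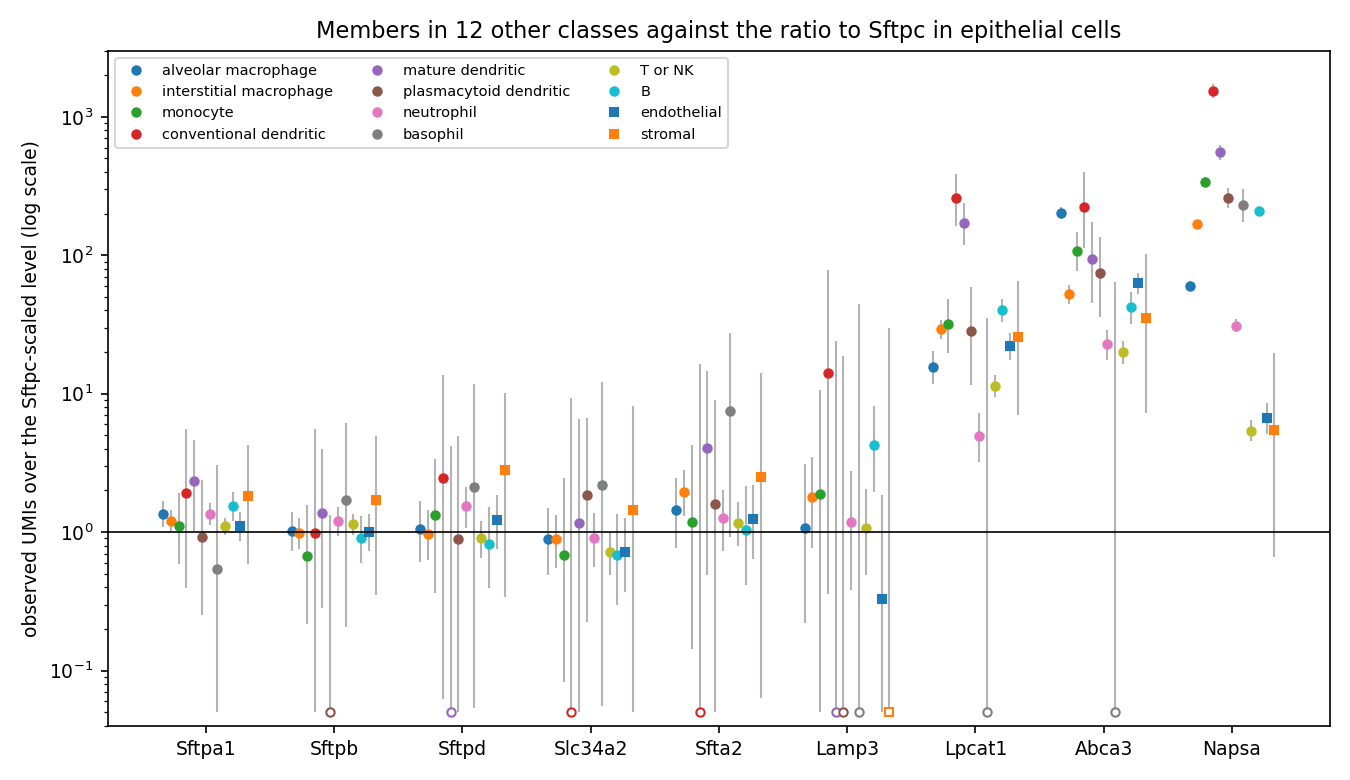
UMIs of 9 genes in 12 classes, divided by the number expected from the Sftpc UMIs of the class and the epithelial ratio to Sftpc (log axis, exact 95% Poisson intervals; open symbols mark 0 UMIs and bars are clipped at 0.05). The intervals take the Sftpc UMIs of the class as fixed. Sftpb and Slc34a2 scatter around 1, while Napsa lies between 5.40 and 1539 in all classes.

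Alveolar macrophages, the cells that clear surfactant, held 157 CPM of the 10 genes together (149 to 164), where stromal cells held 96.8 CPM (69.7 to 131) and T or NK cells 248 CPM (238 to 259). Without the 23 cells that held 10 or more Sftpc UMIs the order of alveolar macrophages and T or NK cells turned, at 155 and 140 CPM. Of their 1591 UMIs, Napsa made up 497, Sftpc 476 and Abca3 390. Sftpa1 was at 8.37 CPM (6.68 to 10.3), 1.36-fold above its Sftpc-scaled level (1.09 to 1.68), and Sftpb at 4.04 CPM (2.90 to 5.47), 1.03-fold (0.737 to 1.39). Macrophages that held TdTomato at 500 CPM or more did not stand apart, at 155 CPM (147 to 164; 1718 cells) against 170 CPM (143 to 200; 168 cells).

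Lamp3, also known as a marker of mature dendritic cells in humans, had no UMI in the 130 mature dendritic cells, for which 3 UMIs set the limit of detection. B cells had 9 Lamp3 UMIs in 2033 cells, at 2.68 CPM, 4.26-fold above the Sftpc-scaled level (1.95 to 8.09). The 22 airway cells, gated on ciliated and secretory markers, held 13 UMIs of Sftpb (128 CPM, 68.1 to 219), 6 of Abca3 (59.1 CPM, 21.7 to 129), 4 of Sftpd (39.4 CPM, 10.7 to 101) and 1 of Sftpc (9.84 CPM). Of the 13 Sftpb UMIs 11 came from 1 cell. No UMI of Lamp3, Napsa, Slc34a2 or Lpcat1 was seen in the airway cells, with an upper limit of 36.3 CPM for each.

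Epithelial cells were next divided by markers of the alveolar lineages, again without the 10 genes. ATII-gated cells (129) had at least 2 of 8 ATII markers and at most 1 of 8 ATI markers, and ATI-gated cells (147) the reverse. Cells with at least 2 of each, called double here, were by far the most frequent (555), and 23 cells met neither gate. Most double cells carried Ager (94.8%) and Aqp5 (97.8%), whereas Hopx was found in 31.0% of them and in 74.1% of ATI-gated cells. Ager was also found in 31.0% and Aqp5 in 47.3% of ATII-gated cells. Without Ager and Aqp5 in the ATI list, a setting chosen after seeing the data, 545 cells were ATII-gated and 105 ATI-gated. The size of the double class therefore rests largely on these 2 genes. The states differed in depth, with median UMIs of 3729 in ATII-gated, 4558 in double and 2152 in ATI-gated cells.

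All 10 genes were lower in ATI-gated than in ATII-gated cells, by at least 2-fold and with an interval off 0. Among all 2962 genes compared 7.87% met this rule in that direction and 13.7% in the opposite one, and the median log2 ratio of all genes was 0.28. Summed, the 10 genes fell from 137916 CPM (136896 to 138943) to 23393 CPM (22901 to 23893), a log2 ratio of -2.56 (-2.59 to -2.53). The 2 gates hold ATII and ATI genes that vary with the program of the cell, so the direction follows the choice of gates and the values are descriptions.

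The genes of the organelle membrane, transport and lipid synthesis come first. Slc34a2 fell from 3730 to 114 CPM, a log2 ratio of -5.03 (-5.51 to -4.59). This ratio was -3.61 (-3.85 to -3.38) with gates read on cells thinned to 1000 UMIs and -6.51 (-7.52 to -5.67) without Ager and Aqp5 in the ATI list, both chosen after seeing the data, so its size depends on the gates. Lamp3 fell from 586 to 19.0 CPM, -4.94 (-6.27 to -3.88), with 7 UMIs left in the ATI-gated cells. Lpcat1 fell from 647 to 76.2 CPM, -3.09 (-3.70 to -2.53), and Abca3 from 401 to 59.9 CPM, -2.74 (-3.45 to -2.10).

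Among the secreted proteins Sftpa1 fell from 12429 to 1774 CPM, a log2 ratio of -2.81 (-2.93 to -2.69), Sftpc from 106046 to 16753 CPM, -2.66 (-2.70 to -2.62), and Sfta2 from 1877 to 335 CPM, -2.49 (-2.77 to -2.21). Sftpb changed less, from 8174 to 2487 CPM, -1.72 (-1.82 to -1.61). Sftpd, from 2445 to 1064 CPM, -1.20 (-1.37 to -1.04), and Napsa, from 1581 to 710 CPM, -1.15 (-1.36 to -0.95), changed least. The intervals of Sftpb, Sftpd and Napsa lay wholly above those of the other 7 genes. Without Ager and Aqp5 in the ATI list, that of Sftpb (-2.24, -2.37 to -2.11) overlapped those of Abca3 (-3.01, -3.85 to -2.28) and Sfta2 (-2.67, -3.00 to -2.36), while Sftpa1 was at -4.07 and Sftpd at -2.05. Sftpa1 and Sftpd, although neighbors on the chromosome and both collectins, thus differed in size by more than their intervals.

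ATI-gated cells also differed in values that are read for RNA quality, which cannot be told apart here from a difference between cell states. Malat1, a nuclear transcript, took 98826 CPM in them against 36577 CPM in ATII-gated cells, and their median mitochondrial share was 3.62% against 4.99%. The part of depth and RNA quality in the ratios was not tested. With the 10 genes taken out of the denominator the summed log2 ratio was -2.74 (-2.77 to -2.71). With gates read on cells thinned to 1000 UMIs, which gave 174 ATI-gated and 380 ATII-gated cells and was chosen after seeing the data, it was -1.88 (-1.90 to -1.86).

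Double cells, a class that depends on reading Ager and Aqp5 as ATI markers, stood close to ATII-gated cells for most of the 10 genes. None of the 10 met the 2-fold rule, which 0.713% of 2524 genes met upward and 0.317% downward. Summed, they stood at 141966 CPM, a log2 ratio of 0.04 (0.03 to 0.05) over ATII-gated cells. Sftpc had a log2 ratio of -0.00 (-0.02 to 0.01), at 105876 against 106046 CPM. The largest difference was that of Sftpd, higher by 0.61 (0.53 to 0.70), at 3734 against 2445 CPM, followed by Lpcat1 at 0.34 (0.17 to 0.51). Within the double cells, the 172 with a Hopx UMI held 103129 CPM (102394 to 103868) of the 10 genes and the 383 without one 156905 CPM (156342 to 157469), at median depths of 3929 and 4747 UMIs.

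**Figure D3:**
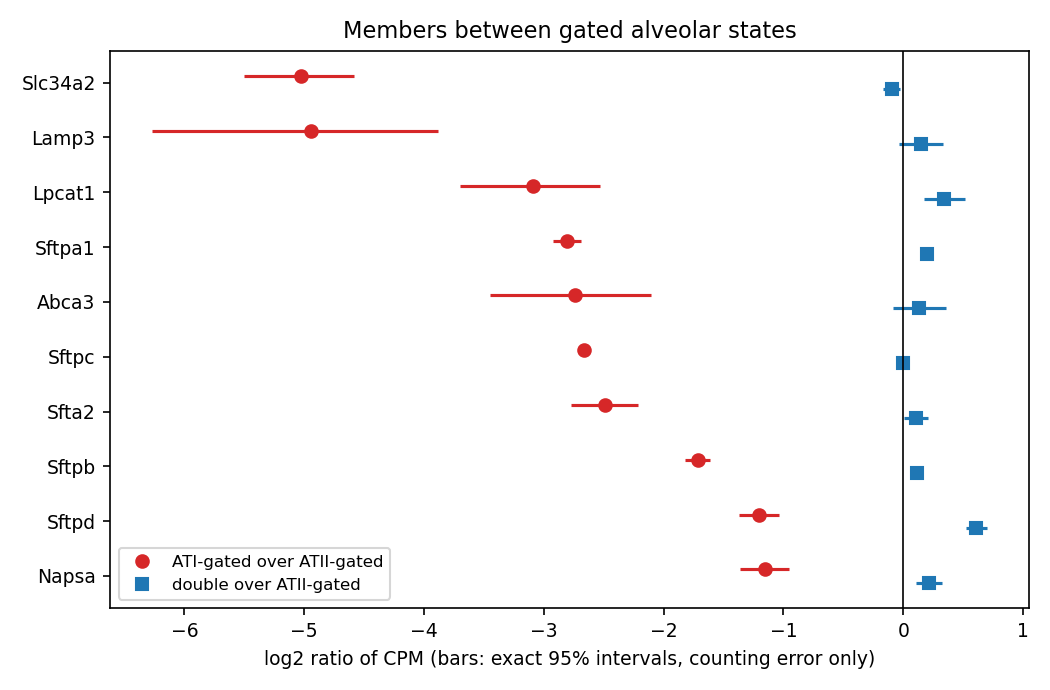
Log2 ratio of CPM for each of the 10 genes between gated epithelial states, with exact 95% intervals for counting error. Ratios of ATI-gated over ATII-gated cells run from -5.03 (Slc34a2) to -1.15 (Napsa), and those of double over ATII-gated cells from -0.10 (Slc34a2) to 0.61 (Sftpd).

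At the level of single cells the fall was uneven. After thinning to 1000 UMIs the median cell held 149 UMIs of the 10 genes among 125 ATII-gated cells, 147 among 551 double cells and 4.5 among 138 ATI-gated cells, against 0 in 4452 T or NK cells. The quartiles were 104 and 183 in ATII-gated and 1 and 24 in ATI-gated cells. Of the UMIs of the 10 genes in all 147 ATI-gated cells 55.5% came from 15 cells, while the 13 highest of the 129 ATII-gated cells held 22.5%. The level of the ATI-gated class was therefore set largely by few cells. A sum above 2 UMIs, the 99th percentile of T or NK cells, was found in 97.6% of ATII-gated (93.1 to 99.5), 98.2% of double (96.7 to 99.1), 64.5% of ATI-gated (55.9 to 72.4) and 0.831% of T or NK cells (0.586 to 1.14).

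The make-up of the UMIs also differed between the states. Over all ATI-gated cells Sftpb made up 10.6% (9.99 to 11.3) and Sftpd 4.55% (4.12 to 5.01) of the UMIs of the 10 genes, against 5.93% (5.75 to 6.10) and 1.77% (1.68 to 1.87) in ATII-gated cells. In T or NK cells the shares were 6.07% (5.11 to 7.14) and 1.93% (1.40 to 2.59).

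**Figure D4:**
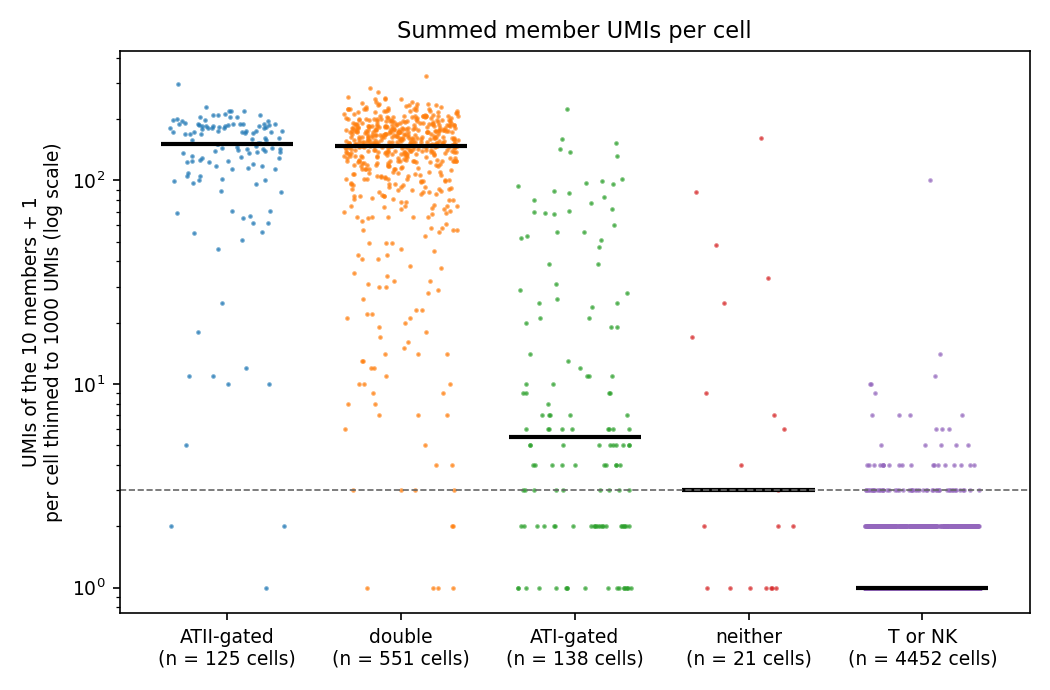
UMIs of the 10 genes plus 1 per cell (log axis), each cell thinned to 1000 UMIs, for 4 epithelial states and T or NK cells; points are cells, bars medians, and the dashed line marks 2 UMIs, the 99th percentile of T or NK cells. The median was 149 UMIs in ATII-gated and 4.5 in ATI-gated cells.

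The typical epithelial cell held most of the 10 genes. In thinned epithelial cells with at least 1000 UMIs (835) a median of 7 of the 10 had a UMI, and 39 cells (4.67%) had all 10. ATII-gated and double cells had a median of 7 and ATI-gated cells a median of 2, and 18 of 138 ATI-gated cells had none. In T or NK cells 88.6% had none. Without thinning, all 10 were found in 44.2% of ATII-gated, 52.6% of double and 0% of ATI-gated cells. Detection did not follow abundance in full, since Sftpa1 had a higher level than Sftpb and Sftpd but was found in fewer cells. In thinned epithelial cells Sftpc was found in 89.6%, Sftpb in 88.1%, Sftpd in 76.6%, Sftpa1 in 76.2%, Slc34a2 in 67.3%, Sfta2 in 64.7%, Napsa in 63.5%, Lpcat1 in 37.6%, Lamp3 in 32.2% and Abca3 in 27.9%. In T or NK cells the share was 6.87% for Sftpc and between 0.0449% and 1.48% for the others.

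Cells with and without Slc34a2 differed in how often the other genes were found. This split also follows the states, since a Slc34a2 UMI was found in 84.8% of thinned ATII-gated and 6.52% of thinned ATI-gated cells. Of 562 thinned epithelial cells with a Slc34a2 UMI 523 (93.1%) also had Sftpa1 and 45.9% (41.7 to 50.1) had Lamp3. Of the 273 without, 113 (41.4%, 35.5 to 47.5) had Sftpa1 and 4.03% (2.03 to 7.10) had Lamp3. Sftpb was found in 98.6% (97.2 to 99.4) and 66.7% (60.7 to 72.2). Within ATII-gated and double cells alone, Slc34a2 and Sftpa1 were both found in 76.5%, against 71.7% if detected independently.

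**Figure D5:**
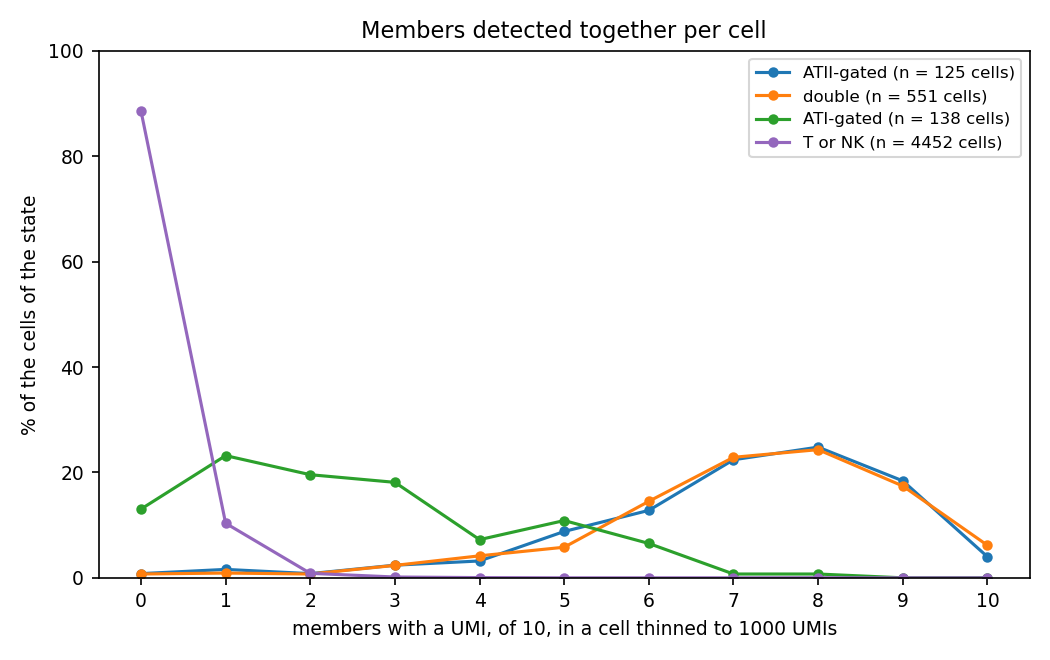
Share of cells (%) by the number of the 10 genes with a UMI, after thinning to 1000 UMIs, for 3 epithelial states and T or NK cells. ATII-gated and double cells both peak at 8 genes (24.8% and 24.3%), ATI-gated cells at 1 (23.2%), and 88.6% of T or NK cells had none.

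Across the 835 epithelial cells the 45 pairs of genes had Spearman correlations of CPM between 0.25 and 0.70, with a median of 0.49. Cells of 1 pooled library set share depth and state, so these are descriptions. The highest pairs were Lamp3 with Slc34a2 (0.70) and Sftpa1 with Sftpd (0.70), the neighbors on chromosome 14. Within the 676 ATII-gated and double cells the range was 0.02 to 0.57 and the median 0.30, and the same 2 pairs stood at 0.57 each. The lowest pair was Napsa with Sfta2, at 0.25 over all epithelial cells and 0.02 within ATII-gated and double cells. Thinned to 1000 UMIs, Sftpa1 with Sftpc was the highest pair over all epithelial cells at 0.61, and Lamp3 with Slc34a2 was at 0.46 and Sftpa1 with Sftpd at 0.59. Over the 14 classes, the Pearson correlation of a gene with the other 9 on log2(CPM + 10) was between 0.78 and 0.96 for 9 genes and 0.38 for Napsa.

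The genes whose levels followed the sum of the 10 most closely across the 835 epithelial cells, among 4300 genes detected in at least 10% of them, were Cxcl15 (Spearman 0.71), a chemokine of the lung epithelium, and Scd1 (0.61), a fatty acid desaturase. Elovl1 (0.56), Npc2 (0.56), Lcn2 (0.54), Cd74 (0.54), Lyz2 (0.54), Fasn (0.50), Cd36 (0.49) and S100g (0.49) followed. Of these Scd1, Elovl1, Fasn and Cd36 serve fatty acid synthesis, elongation or uptake, and Npc2 binds cholesterol in lysosomes. Cxcl15 and Scd1 were also markers in the ATII gate. Their ATII-gated and ATI-gated levels were 5137 and 13.6 CPM for Cxcl15, 5212 and 1483 CPM for Npc2, and 1354 and 0 CPM for Lcn2. Over the 14 classes, the closest patterns among 2331 genes were those of Hc (Pearson 0.95), AA986860 (0.95), Krt23 (0.95), Dlk1 (0.95) and Atp6v1c2 (0.95). These stood between 59.3 CPM (Krt23) and 374 CPM (Dlk1) in epithelial cells and under 2 CPM in all of the other 13 classes.

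Genes that regulate, feed or sense surfactant were read from 4 lists of 54 genes in all. Between ATI-gated and ATII-gated cells 30 could be compared, and 5 of those were themselves markers of a gate, which leaves 25. Of these 9 were lower, 2 higher and 14 neither by the 2-fold rule, which 7.87% of all genes compared met downward and 13.7% upward. Among 7 regulators only Srebf1, which drives lipid synthesis genes, was lower, from 140 to 29.9 CPM (log2 ratio -2.23, -3.29 to -1.30). Foxa2 was at 96.7 and 81.6 CPM (-0.24, -0.95 to 0.44) and Gata6 at 92.8 and 81.6 CPM (-0.18, -0.90 to 0.51), neither past the rule. Nkx2-1, a lineage factor of the distal lung and a marker of the epithelial gate, was at 180 CPM in ATII-gated and 335 CPM in ATI-gated cells. Cebpa and Etv5 were markers of the ATII gate and their ratios are no result.

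Of 11 genes of lipid synthesis, 5 were lower and none higher, where 7.87% of all genes compared were lower and 13.7% higher. They were Fasn, the fatty acid synthase, from 675 to 49.0 CPM (log2 ratio -3.78, -4.56 to -3.10), Fabp5, a fatty acid carrier (-2.67, -3.22 to -2.17), Elovl1 (-2.52, -2.95 to -2.11), Acly, which makes cytosolic acetyl-CoA (from 207 to 73.5 CPM), and Acsl4, which activates fatty acids (-1.26, -1.73 to -0.81). The choline kinase Chka, which starts phosphatidylcholine synthesis, was at 215 and 199 CPM (-0.11, -0.56 to 0.33).

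Of 4 genes of lamellar body traffic and secretion, Rab27a, a GTPase of secretory organelles, was lower at 2 UMIs in ATI-gated and 41 in ATII-gated cells (log2 ratio -3.89, -6.99 to -1.95). Anxa2, which binds membranes and calcium, was higher, at 985 against 227 CPM (2.12, 1.81 to 2.43). The cathepsin Ctsh, which also processes the Sftpb precursor, was at 1905 against 1168 CPM (0.71, 0.55 to 0.87), and the SNARE Vamp8 at 1178 against 785 CPM (0.59, 0.39 to 0.79), both short of 2-fold. Of 3 genes of sensing and uptake Gprc5a was higher (2.39, 1.95 to 2.85), and Cd36 (-3.00, -3.84 to -2.26) and Adgrf5, a receptor that restrains surfactant pools (-1.10, -1.62 to -0.60), were lower. Between double and ATII-gated cells, none of the 30 genes of the 4 lists met the rule, which 0.713% of all genes compared met upward and 0.317% downward.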

How the data were processed

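Libraries were made by the authors with 10x 3′ v3 chemistry, and UMI counts per gene and cell were deposited as 1 matrix (Cell Ranger 3.0.2 per the file header; mm10 with GFP and TdTomato added). Whether libraries were brought to equal depth is not stated in the sources read. Cells with at least 200 genes were kept, up to the 98th percentiles of genes and mitochondrial share, which left 19488 of 20351. A cell took the class with most markers detected, at least 3 of 10 and 2 more than any other lineage; 2766 stayed unresolved and 407 were myeloid but unresolved. CPM was the sum of a gene's UMIs over the cells of a class, scaled to all UMIs of that class. Intervals were exact (Poisson for CPM, Clopper-Pearson for shares, conditional for ratios). Those of the quotients to the Sftpc-scaled level were Poisson intervals with the Sftpc UMIs taken as fixed. The Poisson and conditional intervals were tested only on simulated Poisson counts, the model they assume, so that test does not cover spread between cells. All intervals assume independent molecules. Genes compared stood at 50 CPM or more in either class. A pseudocount of 10 CPM served for the 2-fold rule, the medians over genes and the correlations over classes. The printed ratios of single genes and sums, and all intervals, had no pseudocount, so a ratio just past 2-fold could fall short of the rule. Shares of cells used 1000 UMIs per cell, leaving out shallower cells. Doublets stayed in; Scrublet (scanpy 1.11.5) called 210 of 20299 cells (1.03%). Clustering used Seurat 5.3.0 (R 4.3.3), other steps Python 3.11.15, numpy 2.4.6 and scipy 1.17.1. The genes named were the 10 members, the 4 pathway lists, the 10 genes most correlated with the members' sum over epithelial cells and the 5 most correlated over classes; Malat1 and TdTomato were named after their values were seen. The members, marker lists and pathway lists were chosen with earlier results of these data known.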

Additional observations from a re-analysis of the deposited data

Results flagged for a closer look

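The 2766 cells that no marker list resolved lie outside the comparisons between gated classes above. They are counted in the shares of all UMIs in kept cells and in the values from Seurat clusters. They held the 10 genes at 3111 CPM (3072 to 3151), above the 336 CPM of the 12 other classes. Of their 23689 UMIs of the 10 genes 73.0% were in 278 cells in which the epithelial list led but the gate was not met. Whether such cells fell short in number of markers or in lead was not counted. Sftpc was at 2122 CPM in the unresolved cells.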

How the results depend on the processing

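No paired analysis was possible because cells could not be tied to mice, and for the same reason no replicate could be left out. In each of 10 alternatives that bear on it, all 10 genes remained lower in ATI-gated than in ATII-gated cells with intervals off 0 (log2 ratios -7.49 to -0.79). The summed log2 ratio was -2.61 with Seurat clusters, -2.51 with at least 500 genes, -2.74 without the 10 genes in the denominator and -2.22 with gates of 3 markers (180 and 382 cells); with choices made after seeing the data it was -1.88 with gates on thinned cells and -2.99 without Ager and Aqp5 in the ATI list. The epithelial sum was 122681 CPM with gates of 2 markers, 126250 CPM with clusters, 124519 CPM without upper cut-offs, 125978 CPM with at least 500 genes, 127018 CPM without Scrublet doublets and 145004 CPM without the 10 genes in the denominator. The sum in the other classes was 414 CPM with gates of 2 markers, 314 CPM with gates of 4, 351 CPM with clusters, 367 CPM without upper cut-offs, 325 CPM with at least 500 genes, 325 CPM without doublets, 257 CPM without cells holding any epithelial marker and, chosen after seeing the data, 279 CPM without cells of 10 or more Sftpc UMIs. Alveolar macrophages stood at 170 CPM with clusters. The median of genes detected was 6 at 500 UMIs, 8 at 2000 UMIs and 9 without thinning, and so moved with depth. The remaining 18 of the 42 values for these 5 results stayed within the interval of the main value. Fold values over the Sftpc-scaled level moved by more than 1.5 times in some classes: Napsa in T or NK cells ranged from 4.69 to 20.2, in interstitial macrophages from 72.4 to 273 and in B cells from 185 to 316, Abca3 in endothelial cells from 24.3 to 86.0, Lpcat1 in endothelial cells from 9.43 to 28.8, and all of these stayed above 1. Slc34a2 in T or NK cells lay below its Sftpc-scaled level only without upper cut-offs (0.658, 0.453 to 0.924). Abca3, Lamp3 and Lpcat1 had 22, 7 and 28 UMIs in ATI-gated cells, and this depth limits their ratios.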

Other observations

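Among epithelial cells, 25 held TdTomato under 500 CPM. Their median cell had 2503 CPM of the 10 genes, against 134054 CPM in the median of the 829 cells at or above 500 CPM, at median depths of 2788 and 3937 UMIs. Summed over cells the difference was smaller, at 46536 CPM (45265 to 47834) against 129161 CPM (128783 to 129540). Abca3 stood at 412 CPM (301 to 552) and 386 CPM (366 to 407) in these cells.

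The genes whose levels ran most opposite to the sum of the 10 across epithelial cells, read after the values were seen, were S100a6 (Spearman -0.63), S100a11 (-0.53), Hopx (-0.48), Emp2 (-0.47) and Malat1 (-0.47). S100a6, a calcium-binding protein, was at 1374 CPM in ATII-gated and 14118 CPM in ATI-gated cells, and at 14242 CPM in the 23 cells that met neither gate. Those 23 cells held 12481 CPM of the 10 genes (11672 to 13330), but 2 of them held 53.2% of these UMIs and the median cell was at 1998 CPM. Krt8, a keratin and a marker of the epithelial gate, was at 1775 CPM in the 23 cells. ATI-gated cells held Krt8 at 1899.5 CPM and ATII-gated cells at 448 CPM.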
